A study of Homo sapiens with 10 samples.

Results

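Expression of 10 genes that carry or control antigen presentation was examined: B2M, CD74, CIITA, NLRC5, RFX5, RFXAP, RFXANK, ERAP1, ERAP2 and CTSS. They were chosen by symbol, with the HLA genes themselves left out, and all 10 were found among the 25275 gene symbols of both expression tables. The study asked what the transcription factor STAT3 does in diffuse large B-cell lymphoma, a B-cell cancer, and used 2 established human lines of its activated B-cell-like type, OCI-LY10 and TMD8. Each line carried either a control shRNA or 1 of 2 short hairpin RNAs against STAT3, numbered 10 and 16, and all 6 RNA-seq cultures, controls included, received 20 ng/ml doxycycline for 2 days to switch the shRNA on. OCI-LY10 therefore gave 1 control library, 1 library with shRNA 10 and 1 with shRNA 16. The TMD8 table holds 3 libraries under no column names, so the columns are given by position, none is assigned to a shRNA and no shRNA comparison is made in that line. The 4 samples of STAT3 chromatin immunoprecipitation are not analysed here. Values are FPKM, fragment counts corrected for both gene length and total fragments, so that levels of different genes can be set side by side.

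Cells show fragments of their proteins to T cells on major histocompatibility complex (MHC) molecules. Class I molecules need B2M, the light chain that holds them in shape, and peptides trimmed to length in the endoplasmic reticulum by the aminopeptidases ERAP1 and ERAP2. Class II molecules are escorted by CD74, the invariant chain, which the endosomal protease cathepsin S (CTSS) cuts down so that peptide can bind. Transcription of both classes runs through one promoter platform: RFX5, RFXAP and RFXANK form the DNA-binding RFX trimer, on which CIITA acts as the co-activator for class II genes and NLRC5 for class I genes. Diffuse large B-cell lymphomas often lose MHC expression, for example through damage to B2M or CIITA.

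Promoter sequence was read for 7 of the 10 genes (RefSeq, build GRCh38.p14, 250 bases before to 50 after each start), leaving out CIITA, NLRC5 and CTSS. Stretches are shown for B2M and ERAP1, the genes whose level passed the test below, for ERAP2, the neighbour of ERAP1, and for CD74, the most abundant class II gene here. They lie at chr15:44711367-44711516 on the plus strand for B2M, chr5:150412911-150413010 on the minus strand for CD74, chr5:96807934-96807963 on the minus strand for ERAP1 and chr5:96876460-96876489 on the plus strand for ERAP2. Each is written 5′ to 3′, and capitals mark matches to the motifs named after the sequences.
B2M: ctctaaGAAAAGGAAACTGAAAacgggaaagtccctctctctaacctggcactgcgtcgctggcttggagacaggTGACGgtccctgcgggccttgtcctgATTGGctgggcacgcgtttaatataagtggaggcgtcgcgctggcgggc
CD74: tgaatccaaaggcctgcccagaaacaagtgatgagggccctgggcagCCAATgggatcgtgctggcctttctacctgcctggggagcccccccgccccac
ERAP1: tgccgctccccgggctccacTTTCACTTTC
ERAP2: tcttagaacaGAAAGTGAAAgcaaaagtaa

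Both strands of every window were searched for 4 motifs, and matches of different motifs did not overlap in these genes. The interferon-response type of repeat, searched as GAAA, any 2 bases and GAAA again, occurred in windows of B2M, ERAP1, ERAP2 and RFX5, which is 4 of 7 genes, against 4.38% of 27305 genes with a promoter window. In B2M it occurred at 2 overlapping places. CCAAT, the box bound by NF-Y, which sits beside RFX on MHC promoters, occurred in B2M, CD74, RFX5 and ERAP1, again 4 of 7, against 39.7% of all genes. TGACG, part of the element bound by CREB, occurred in B2M, RFX5 and RFXAP, or 3 of 7, against 28.4%. The STAT-type palindrome TTCNNNGAA occurred in 0 of the 7 genes, against 9.38% of all genes. The 7 genes had 13 windows among 35116, and a gene with more windows has more places to match. By window, CCAAT matched 4 of 13 against 34.6% of all windows, and TGACG 4 of 13 against 24.6%. The interferon-response type of repeat matched 4 of 13 against 3.57%, and the palindrome 0 of 13 against 7.66%. A match is a match of letters in these windows and was not tested for binding.

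Some facts of the libraries touch every value that follows. In OCI-LY10 the library labelled control stood apart: with small RNA genes set aside, log2(FPKM + 1) over 23201 genes gave a Pearson's r of 0.997 between the libraries with shRNA 10 and shRNA 16, but 0.938 and 0.939 between each of them and the control. The same control library correlated at 0.975 to 0.985 with the 3 TMD8 libraries, which correlated with each other at 0.993 to 0.997. These are correlations across genes, which are not independent replicates. STAT3 stood at 16.5 FPKM in the OCI-LY10 control, 11.1 with shRNA 10 and 10.6 with shRNA 16, a log2 change of −0.56 (SE 0.10, limma adjusted p = 0.0465), and at 120.3, 24.3 and 22.5 FPKM in the 3 TMD8 columns. Any difference between control and shRNA libraries in OCI-LY10 therefore cannot be told apart from whatever else sets the control library apart. Whether that library is the line and culture its label names cannot be settled from these values, and "control" here means the library so labelled. In these bulk samples, fewer cells with a transcript and less transcript per cell cannot be told apart either. All 7 B-cell markers, among them MS4A1, CD79A and PAX5, were above 1 FPKM in some library, and 0 of 7 T and NK cell markers were. The summed B-cell markers were at 838 FPKM in the OCI-LY10 control, 2386 and 2642 with the shRNAs, and 802 to 958 in TMD8, and their part in the results was not tested. Within that list CD22 alone went the other way, at 62.1 FPKM in the control, 23.0 and 29.3 with the shRNAs and 79.4 to 95.8 in TMD8. Among 6 monocyte and macrophage markers CD68 alone exceeded 1 FPKM, and among 5 dendritic cell markers CD1C alone did, while FCGR3A and CLEC10A were listed at 0 in all 6 libraries. The summed monocyte markers were at 48.2 FPKM in the OCI-LY10 control against 2.39 and 1.55 with the shRNAs and 23.4 to 34.9 in TMD8, and the summed dendritic cell markers at 8.46 against 38.2 with each shRNA and 0.749 to 0.888. Plasma cell markers summed to 37.6 FPKM in the control, 75.6 and 76.1 with the shRNAs and 45.8 to 59.9 in TMD8, but within that list TNFRSF17 went from 1.57 to 39.8 and 35.0 while SDC1 went from 3.87 to 0.251 and 0.301. Epithelial markers summed to 34.8 FPKM in the control, 5.48 and 5.98 with the shRNAs and 19.3 to 20.7 in TMD8, with CDH1 at 32.6, 0.0102 and 0 in OCI-LY10 and EPCAM at 0 in the control and 4.39 with each shRNA. Stromal and endothelial markers summed to 5.37 to 6.09 FPKM in OCI-LY10 and 4.02 to 5.57 in TMD8, with COL1A1 at 3.60 in the control, 0.00823 and 0 with the shRNAs and PECAM1 at 0.109, 5.43 and 6.05. The part of these lists in the results was not tested either. Relative depth, read from the commonest ratio of values under 0.1 FPKM, was 1.53 for the control and 0.73 for shRNA 16, each relative to shRNA 10. In TMD8 only 6.4% and 11.2% of the low-value ratios lay on whole-number ratios, so relative depth was not read there, and absolute depth is unknown in both lines.

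The 10 genes spanned 0.855 to 1881 FPKM, and their order was similar in every library. B2M and CD74 were the highest, above at least 98.8% of the genes tested in each library, and ERAP2 was the lowest. RFXANK, CTSS, RFX5 and ERAP1 formed a middle group between 14.4 and 60.8 FPKM. CIITA came seventh in all 6 libraries, and NLRC5 and RFXAP exchanged the eighth and ninth places. Within the middle group neighbours were close: in the OCI-LY10 control RFXANK, ERAP1 and CTSS stood at 26.9, 26.4 and 26.2 FPKM, and with the shRNAs RFXANK (34.3 ± 2.43, SD, n = 2) and CTSS (33.3 ± 0.437, SD, n = 2) did not differ beyond their spread.

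**Figure D1:**
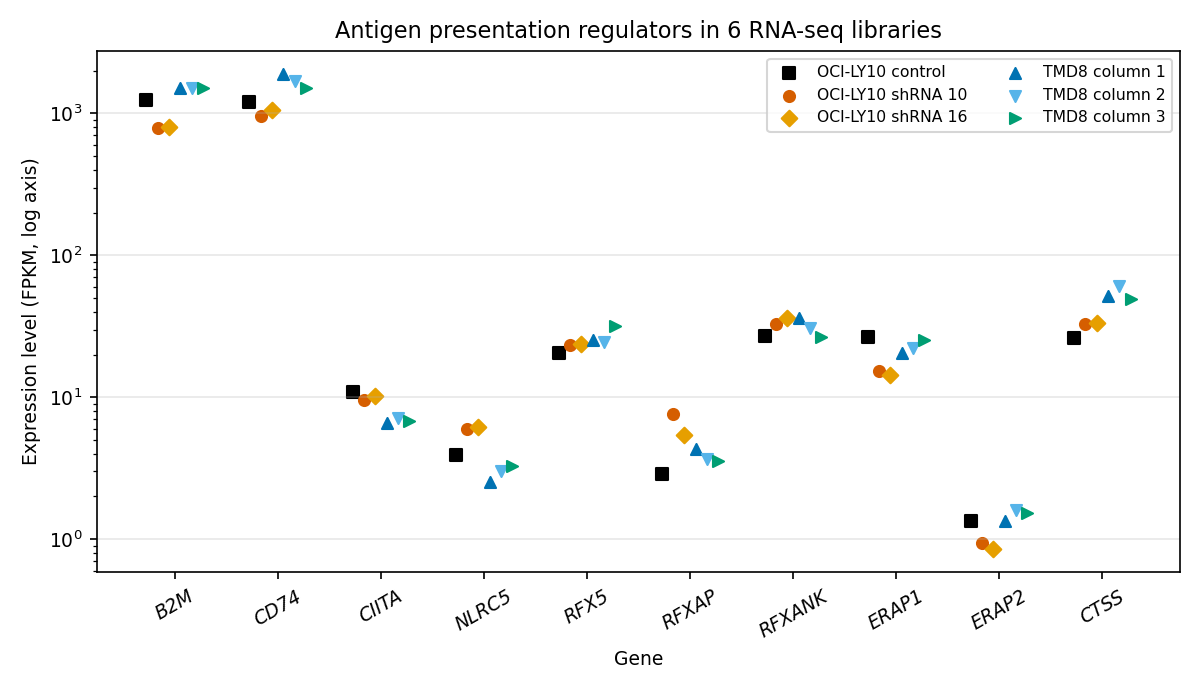
Level of each gene in FPKM (log axis) in the 3 OCI-LY10 libraries and the 3 TMD8 libraries, 1 point per library. B2M and CD74 lie between 792 and 1881 FPKM, and ERAP2 between 0.855 and 1.60 FPKM.

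In OCI-LY10, B2M and ERAP1 fell in the STAT3 shRNA libraries, and 8 of the 10 genes did not pass the test. The test set the 2 STAT3 shRNA libraries against the 1 control (limma on log2(FPKM + 1), two-sided, adjusted over the 11162 genes averaging 1 FPKM or more, threshold 0.05). All 10 genes passed that filter on low values, ERAP2 only through the control. The 2 genes called lower compare with a background of 17.4% of tested genes called lower, and the 0 called higher with 20.3% called higher, so the share called lower is near the background. At an unadjusted p below 0.05 (limma), 3 of the 10 were higher and 3 lower. The share of all tested genes at that level was not counted, here or for the lists further on, so such counts have no background. The median log2 change was 0.03 over the 10 genes and 0.06 over all tested genes. The control has no replicate, the 2 shRNAs stand in for replicates, and the p-values measure only the spread between those 2 libraries. A gene that missed the threshold is not thereby shown to be unchanged.

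**Figure D2:**
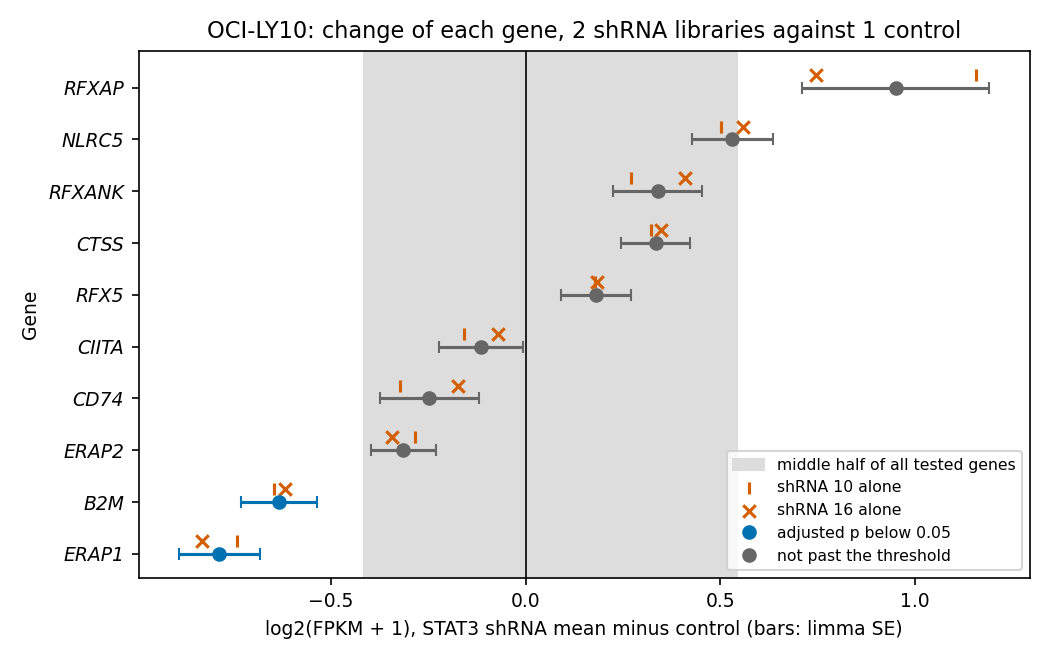
Log2 change of each gene in OCI-LY10, as the mean of 2 STAT3 shRNA libraries minus 1 control on the log2(FPKM + 1) scale, with the limma SE as bars and each shRNA alone as small marks. The grey band from −0.41 to 0.54 holds the middle 50% of all tested genes; ERAP1 and B2M lie below it, RFXAP above it and the other genes inside it.

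B2M, the class I light chain, was at 1240 FPKM in the OCI-LY10 control, 792 with shRNA 10 and 808 with shRNA 16. Both shRNA libraries lay below the control and close to each other, at 64.5% of control (mean 799.7 ± 11.4, SD, n = 2). B2M fell by 0.63 on the log2 scale (SE 0.10, limma adjusted p = 0.0362). When genes under 1 FPKM were kept in the fit, the call was lost (adjusted p = 0.0620). In TMD8 the 3 columns read 1513, 1521 and 1520 FPKM, the narrowest range of the 10 genes, and every OCI-LY10 library lay below it. A larger absolute change than that of B2M was seen in 40.2% of tested genes.

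ERAP1, which trims peptides for class I, was at 26.4 FPKM in the OCI-LY10 control, 15.4 with shRNA 10 and 14.4 with shRNA 16. The shRNA libraries were again alike and lay at 56.5% of control (mean 14.9 ± 0.702, SD, n = 2). ERAP1 fell by 0.79 on the log2 scale (SE 0.10, limma adjusted p = 0.0290), a call likewise lost with genes under 1 FPKM kept in (adjusted p = 0.0550). TMD8 held 20.3, 22.4 and 25.4 FPKM, a range above both shRNA libraries of OCI-LY10 and just below its control. A larger change was seen in 32.4% of tested genes.

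ERAP2, a second trimming enzyme whose gene lies next to ERAP1, was at 1.35 FPKM in the OCI-LY10 control, 0.933 with shRNA 10 and 0.855 with shRNA 16. Its log2 change of −0.31 (SE 0.08) did not pass (limma adjusted p = 0.0826), and since both shRNA values are under 1 FPKM it was tested only through its control value. In TMD8 it was at 1.33, 1.60 and 1.52 FPKM, so the OCI-LY10 control lay within the TMD8 range and both shRNA libraries below it. The ERAP1 gene overlaps ERAP2 and CAST in RefSeq, and the use of strand in counting is not given in the sources used here, so reads of these genes may have been shared. LNPEP, a related aminopeptidase encoded nearby, was at 8.23 FPKM in the control against 5.94 and 5.57, and did not pass either (limma adjusted p = 0.0709).

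Neither co-activator passed the test in OCI-LY10. CIITA, for class II, was at 10.8 FPKM in the OCI-LY10 control, 9.59 with shRNA 10 and 10.2 with shRNA 16, a log2 change of −0.11 (SE 0.11, limma adjusted p = 0.461). The highest of the 3 values was 1.13 times the lowest, and the sign of the change turned to 0.017 when small RNA genes were left out and the libraries rescaled. In TMD8 CIITA was at 6.55, 7.18 and 6.83 FPKM, below every OCI-LY10 library. NLRC5, for class I, was at 3.89 FPKM in the control, 5.93 with shRNA 10 and 6.21 with shRNA 16, at 156% of control (mean 6.07 ± 0.197, SD, n = 2). Its log2 change of 0.53 (SE 0.10) narrowly missed the threshold (limma adjusted p = 0.0512) and passed it under 5 of 8 alternative settings. TMD8 columns read 2.53, 3.04 and 3.26 FPKM for NLRC5, so its OCI-LY10 levels were all above the TMD8 range.

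The genes of the RFX trimer, whose products bind DNA together, were at unequal levels, with RFXAP far below the other subunits. RFX5, the DNA-contacting subunit, was at 20.6 FPKM in the control and 23.5 with both shRNAs, a log2 change of 0.18 (SE 0.09, limma adjusted p = 0.217). RFXANK, the ankyrin-repeat subunit, was at 26.9 FPKM in the control, 32.6 with shRNA 10 and 36.1 with shRNA 16, a log2 change of 0.34 (SE 0.11, limma adjusted p = 0.120). RFXAP was at 2.85 FPKM in the control, 7.58 with shRNA 10 and 5.46 with shRNA 16. Its log2 change of 0.95 (SE 0.24) was the largest of the 10 genes and missed the threshold (limma adjusted p = 0.0761), the shRNA libraries differing more from each other for RFXAP than for any other of the 10 genes. In TMD8 the 3 columns read 25.5, 24.7 and 31.6 FPKM for RFX5, 35.96, 30.9 and 26.6 for RFXANK, and 4.30, 3.69 and 3.53 for RFXAP. All 3 subunits were thus above the control with both shRNAs in OCI-LY10, and 0 of the 3 passed the test (limma; RFXAP alone had an unadjusted p below 0.05). CIITA overlaps DEXI and RFXANK overlaps NR2C2AP in RefSeq, so their values carry the same uncertainty as those of ERAP1.

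Neither gene of the class II escort passed the test. CD74, the invariant chain, was at 1195 FPKM in the OCI-LY10 control, 956 with shRNA 10 and 1061 with shRNA 16, at 84.4% of control, with a log2 change of −0.25 (SE 0.13, limma adjusted p = 0.228). It was at 1881, 1702 and 1520 FPKM in the TMD8 columns, all above OCI-LY10. CD74 exceeded B2M with both shRNAs and in TMD8 columns 1 and 2, whereas B2M was slightly higher in the OCI-LY10 control. CTSS, the protease that processes CD74, was at 26.2 FPKM in the control, 33.0 with shRNA 10 and 33.6 with shRNA 16, a log2 change of 0.33 (SE 0.09, limma adjusted p = 0.0815). TMD8 held more CTSS than any OCI-LY10 library, at 51.4, 60.8 and 49.5 FPKM.

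Scaling bears on these calls. Small RNA genes took up 49.1% of the FPKM sum in the OCI-LY10 control, against 57.9% with shRNA 10 and 58.2% with shRNA 16. With them left out and the remaining sums made equal, the median change of all tested genes moved from 0.06 to 0.19 on the log2 scale, and calls over all genes from 2263 higher and 1943 lower to 3553 and 1951. NLRC5 (limma adjusted p = 0.0193), RFXAP (0.01997), CTSS (0.0360) and RFXANK (0.0381) then passed as higher, while B2M and ERAP1 remained called lower. Of the pathway genes described further on, 18 were then called higher in place of 11. How many genes that setting tested was not counted, so these counts have no background share. Median-of-ratios scaling and quantile normalization moved the median change to 0.004 and 0.04 instead. Under neither did RFXAP (limma adjusted p = 0.08695 and 0.07715), CTSS (0.1137 and 0.1293) or RFXANK (0.1607 and 0.1888) pass. NLRC5 passed only under the second (limma adjusted p = 0.0599 and 0.04174).

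The libraries with shRNA 10 and shRNA 16 were alike for these genes, as they were over all 23201 genes compared (Pearson's r of 0.997). Of the 10, 0 differed by 1.5-fold or more between them, where 8.64% of tested genes did in OCI-LY10 (no test, 1 library each). RFXAP differed most, at 0.720 times the shRNA 10 level with shRNA 16, and the other genes lay between 0.917 and 1.11 times. Over all 3 OCI-LY10 libraries, 5 of the 10 (B2M, NLRC5, RFXAP, ERAP1 and ERAP2) had a highest value at least 1.5 times the lowest, against 55.1% of tested genes. Over the 3 TMD8 libraries 0 of the 10 did, against 17.9% of 10888 genes, and the widest TMD8 range was that of RFXANK, at 1.35 times. With only 10 genes, counts of this kind show nothing particular to them. STAT3 itself varied 5.36 times among the same TMD8 libraries. Those columns carry no shRNA names, and a relation of the 10 genes to STAT3 level there was not tested.

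Set beside the TMD8 range, the OCI-LY10 control was within it for 2 of the 10 genes (RFXANK and ERAP2), above it for 3 (CIITA, NLRC5 and ERAP1) and below it for 5. Both shRNA libraries were above the range for 3 (CIITA, NLRC5 and RFXAP), below it for 6, and overlapped it for RFXANK. The control lay nearer than the shRNA mean to the middle TMD8 value for 6 genes (B2M, CD74, NLRC5, RFXAP, ERAP1 and ERAP2). It lay farther for the other 4, among them CTSS, whose control value was 0.95 below the middle TMD8 value on the log2 scale against 0.61 below for the shRNA mean. The 2 tables may have been scaled separately, so these positions carry no test. They were not counted over all genes, so how usual such positions are is not known.

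**Figure D3:**
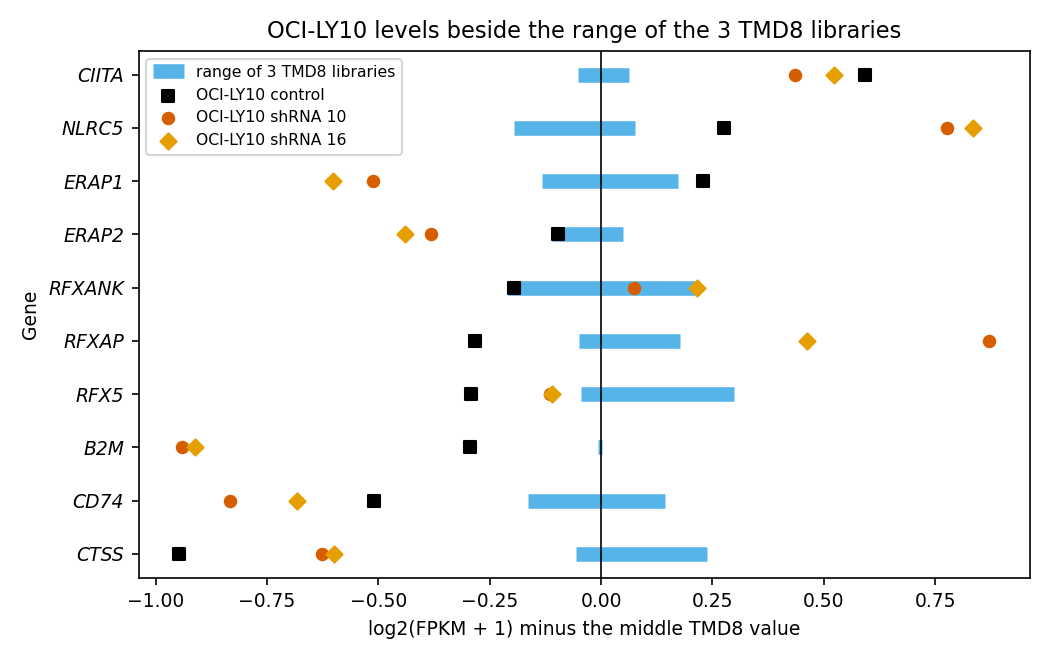
OCI-LY10 libraries (points) relative to the middle TMD8 value of each gene on the log2(FPKM + 1) scale, with the range of the 3 TMD8 libraries as a blue bar. CIITA and NLRC5 lie to the right of the bar in all OCI-LY10 libraries, and B2M, CD74, RFX5 and CTSS to the left in all of them.

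The pattern of CIITA over the 6 libraries, centred on its mean within each line, was nearest to those of KDM2B (distance 0.037 on the log2 scale), GSTCD (0.041), ZNF619 (0.043), ZNF2 (0.047) and DNAJC6 (0.052), among 10100 genes compared. CIITA itself varied little (0.139 from a flat profile), and 4904 of the genes compared lay within 0.5 of it.

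Other genes of the pathway were described from 8 lists without HLA genes, 83 genes in all, of which 64 passed the filter on low values. In the OCI-LY10 comparison 11 of these 64 rose and 13 fell (limma, adjusted p below 0.05), with a median log2 change of 0.02. These shares, 17.2% higher and 20.3% lower, are near those of all tested genes, 20.3% and 17.4%, so the counts are a description of the lists and show nothing particular to them. The filter on low values takes the mean of the 3 libraries, so a gene under 1 FPKM with both shRNAs was tested only because its control value was high.

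Among 9 tested genes that supply and load class I peptides, 2 rose (22.2%, against 20.3% of all tested genes) and 1 fell (11.1%, against 17.4%). The chaperone gene CALR rose from 446 FPKM to 650 and 664, and PSMB10, an immunoproteasome subunit, from 105 to 146 and 150. PDIA3, the oxidoreductase of the loading complex, fell from 91.4 FPKM to 48.9 and 54.7, against 47.3 to 67.2 in TMD8. TAP1, TAP2, TAPBP, PSMB8 and PSMB9, which lie inside the MHC like the HLA genes, were listed at 0 in all 6 libraries, so the peptide transporter and most immunoproteasome subunits cannot be described from these tables.

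Among 11 tested genes of the class II route, 2 rose and 2 fell, or 18.2% each way, near the 20.3% and 17.4% of all tested genes. The protease gene CTSH fell from 101 FPKM to 20.9 and 24.5, against 76.6 to 91.9 in TMD8, and CD83, which stabilises class II at the cell surface, from 177 to 51.4 and 61.3, against 32.9 to 57.5 in TMD8. CTSZ, another cathepsin, rose from 181 FPKM to 277 and 298, and RAB7A, of late endosomes, from 106 to 149 and 145. Of 2 tested cystatin genes, whose products inhibit cathepsins, 1 rose and 1 fell, or 50% each way, against 20.3% and 17.4% of all tested genes. CSTA rose from 2.13 FPKM to 9.15 and 10.7, against 6.43 to 7.02 in TMD8, and CSTB fell from 155 to 28.1 and 32.6, against 127 to 153 in TMD8. Of 3 tested partners of CD74, 0 rose (against 20.3% of all tested genes) and 1 fell (33.3%, against 17.4%). This was CXCR4, which fell from 42.4 FPKM to 1.54 and 1.27, where TMD8 held 55.3 to 66.9.

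Of 13 factors listed as joining RFX and CIITA at MHC promoters, activating or not, 4 rose and 0 fell by limma. That is 30.8% higher against 20.3% of all tested genes, and 0% lower against 17.4%. At an unadjusted p below 0.05 (limma), 5 were higher and 1 lower. NFYA, a subunit of NF-Y, rose from 9.98 FPKM to 23.4 and 27.0, and NFYC, another, from 13.2 to 22.1 and 21.7, while NFYB, the third, was at 12.2 against 8.40 and 8.30 and did not pass (limma adjusted p = 0.0518). The histone deacetylase gene HDAC1 rose from 34.5 FPKM to 87.6 and 80.5. ZXDC, a zinc finger partner of CIITA, rose from 4.76 FPKM to 8.21 and 7.66. NFYC, ZXDC and NFYB were named after their values were seen. Of the other RFX family genes, 0 of 3 tested passed in either direction by limma (1 higher and 0 lower at an unadjusted p below 0.05).

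Of 16 upstream regulators of CIITA and NLRC5, 6 fell (37.5%, against 17.4% of all tested genes) and 2 rose (12.5%, against 20.3%). Their median log2 change was −0.61, against 0.06 over all tested genes. FOXP1, a B-cell transcription factor, rose from 23.1 FPKM to 43.2 and 46.4, against 31.2 to 32.4 in TMD8. PRDM1, a repressor of CIITA in plasma cells, was at 9.39 FPKM in the control against 0.685 and 0.585, and fell by 2.67 on the log2 scale. It passed the filter on low values only through the control, as did SOCS1, at 2.26 FPKM against 0.279 and 0.637. Both are counted among the 6 that fell and, given the filter, could only be called lower. SOCS3, an inhibitor of JAK-STAT signalling, fell by 3.59 on the same scale. IRF4 fell from 411 FPKM to 73.8 and 80.8, JAK2 from 11.2 to 1.36 and 1.22, and IFNGR2 from 30.6 to 16.0 and 16.4. SOCS1, IRF4, JAK2 and IFNGR2 were named after their values were seen. CIITA was at 91.8% of control, and whether any of these changes bears on it was not tested.

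Among 7 other tested M1 aminopeptidases, the wider enzyme family that includes ERAP1 and ERAP2, 0 rose and 2 fell by limma. That is 28.6% lower against 17.4% of all tested genes, and 0% higher against 20.3%. At an unadjusted p below 0.05 (limma), 0 were higher and 4 lower. ANPEP (CD13) was at 11.9 FPKM in the OCI-LY10 control, 0.0273 and 0.0187 with the shRNAs and 6.83 to 7.96 in TMD8, and it too was tested only through its control value. ANPEP, counted among the 2 that fell, could thus only be called lower. RNPEP fell from 33.7 FPKM to 15.5 and 17.7.

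**Figure D4:**
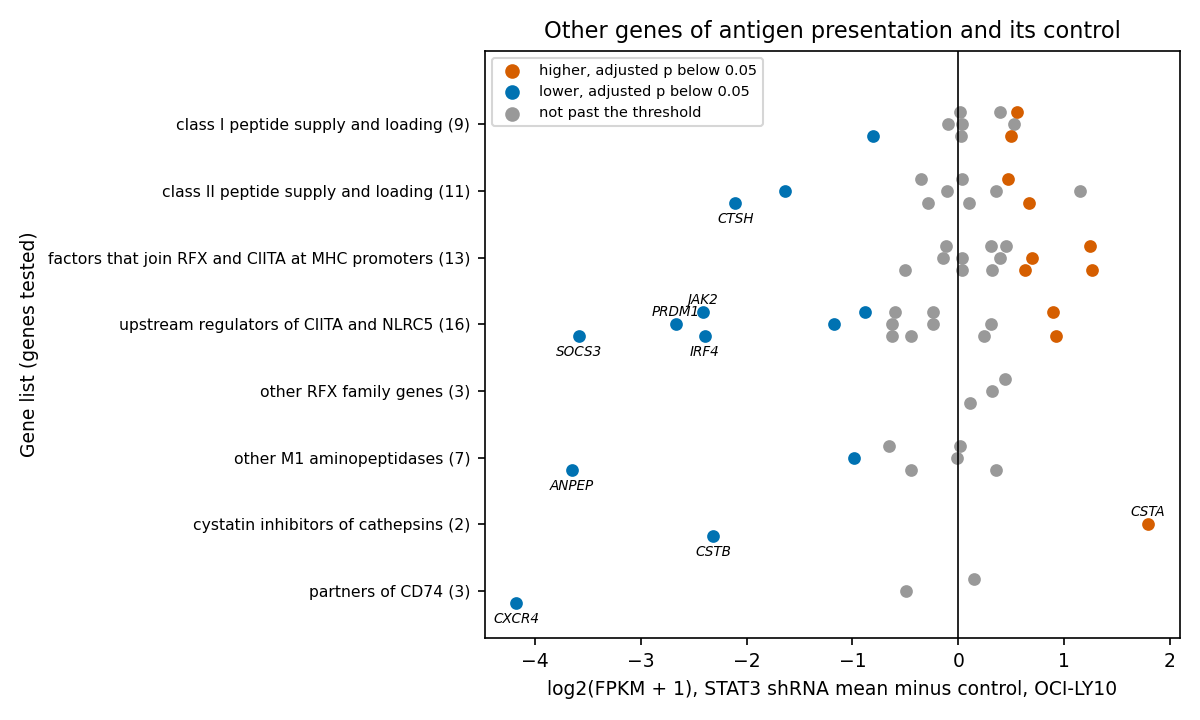
Log2 change in OCI-LY10 (mean of 2 STAT3 shRNA libraries minus 1 control, log2(FPKM + 1) scale) of the tested genes of each list, 1 point per gene, coloured where the limma adjusted p was below 0.05. CXCR4, ANPEP and SOCS3 lie farthest to the left and CSTA farthest to the right.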

How the data were processed

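The authors deposited FPKM values, 1 table per cell line with 25277 rows. TopHat, Bowtie2 and hg19 come from the submitters' processing notes, and the TruSeq library kit is named per the labels' protocols. How FPKM was computed, with which annotation, strand setting and scaling, is not given in the sources used here. OCI-LY10 columns were matched to samples by name. The 3 TMD8 columns have no names and were tied only to the 3 TMD8 samples whose label names that table.

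Rows of 2 repeated symbols were summed. Since a value of 0 may mark a failed estimate, such genes are described as listed at 0. Genes averaging 1 FPKM or more in OCI-LY10 were tested with limma 3.58.1 (R 4.3.3, variances moderated along a trend with mean level, 1 residual and 1.64 prior degrees of freedom) on log2(FPKM + 1), with Benjamini-Hochberg adjustment at 0.05. Fold changes on this scale understate those of low genes. The test was tried on simulated data in which every library had the same spread and most genes were left unchanged. That trial therefore did not cover a control library that stands apart, as it does here. The labels do not say whether libraries came from separate cultures, so the spread may be technical.

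The members and lists were chosen with earlier results of these data known. Genes named were the 10 members, STAT3, up to 2 called genes per list and direction with the largest change, and the 5 genes nearest to CIITA by Euclidean distance. One gene that this rule names, though counted in its list, is not reported here. Listed symbols that the tables lack were matched through RefSeq synonyms. Alternatives changed the pseudocount, filter, scaling, small RNA genes, variance trend and the shRNA libraries used.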

Additional observations from a re-analysis of the deposited data

How the results depend on the processing

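Among the 10 members, CIITA alone changed direction under any of the 8 alternative settings run (7 for ERAP2, which is under a mean of 5 FPKM). Without the filter on low values, calls over all genes went to 1299 higher and 2101 lower, the members called lower to 0 and pathway genes called higher to 6. With small RNA genes left out, 3553 genes, 4 members and 18 pathway genes were called higher, and the log2 change of CIITA turned to 0.017. For genes of mean 5 FPKM or more, 1178 were called lower. How many genes each of these settings tested was not counted, so the counts have no background share and show nothing particular to the members. One member, NLRC5, was called higher (a count of 1) with a pseudocount of 5 FPKM, that mean of 5, quantile normalization or no mean-variance trend. B2M and ERAP1 each kept their call under 7 of 8, with adjusted p from 0.02035 to 0.0620 and from 0.0214 to 0.0550 (limma). With either shRNA library left out, a value without a test, every member kept its direction, B2M between −0.65 and −0.62 and ERAP1 between −0.83 and −0.74. No paired analysis was possible because OCI-LY10 has 1 library per shRNA and the TMD8 columns carry no names. Depth limits the low genes ERAP2, RFXAP and NLRC5 most, and it is unknown in absolute terms.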
